A study of Mus musculus with 4 samples.

Results

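Collagen genes were examined for peaks of NR1D1 in cultured smooth muscle cells from mouse aorta. The members were all protein-coding genes of the RefSeq table of mm10 (assembly GRCm38.p6) whose symbol reads Col, digits, a, digits, and 44 of 21887 protein-coding genes on chromosomes 1 to 19, X and Y met this rule. A peak was counted for a gene when it overlapped the gene or the 10 kb on either side of it, together called its window. The cells were primary vascular smooth muscle cells, labelled wild type, and were kept for 24 h with phosphate-buffered saline (PBS) or with vasostatin-2, a peptide cut from chromogranin A. Chromatin was profiled by CUT&Tag, in which an antibody guides a transposase to the bound protein and the DNA beside it is cut out and sequenced. Each treatment had 1 library with an NR1D1 antibody and 1 with IgG, all with the same batch label; no IgG file was used here. Because a treatment is represented by 1 NR1D1 library, there is no replicate error and no test of a treatment effect. The intervals given are 95% Poisson or Wilson intervals and cover counting error only.

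NR1D1, also called REV-ERB alpha, is a nuclear receptor without a classical activation function that recruits the corepressor NCoR and HDAC3, and it represses clock and metabolic genes. Collagens are built from chains that wind into a triple helix. Fibrillar collagens such as types I and III carry the tensile load of the artery wall, type IV forms the network of basement membranes around each smooth muscle cell, and the remaining types decorate fibrils, anchor cells or span the membrane. Smooth muscle cells make most of the collagen of the arterial media, and more of it in the synthetic state. A peak list shows where a protein was found and holds no expression, so neither the cell type nor the output of a collagen gene could be read from it. Of 6 smooth muscle markers, 4 had a PBS peak in their window (Myh11, Tagln, Smtn and Lmod1) and 3 a vasostatin-2 peak (the same without Smtn), against 29.5% and 28% of all protein-coding genes; Acta2 and Cnn1 had none in either list. Of 4 leukocyte markers Cd68 and Cd14 had one in each list, and of 4 fibroblast markers Pdpn did. Of 4 endothelial markers Pecam1 had one in the PBS list alone and Cdh5 in the vasostatin-2 list alone.

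The PBS list held 7377 peaks and the vasostatin-2 list 8816, with a median of 8 and 7 fragments at the summit. Fragments here are DNA fragments stacked at the highest point of a peak, recovered from the deposited fold and p-value. The vasostatin-2 library was 1.32 times as deep as the PBS library by its uniform background, and values called depth-scaled are divided by that ratio. The smallest peak of either list had 4 fragments, so a site with fewer would not be listed.

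The share of collagen genes with an NR1D1 peak was near that of all protein-coding genes in both lists. A peak lay in the window of 13 of 44 genes in the PBS list (29.5%, Wilson interval 18.2 to 44.2) and of 14 in the vasostatin-2 list (31.8%, 20 to 46.6). Among all protein-coding genes 29.5% had such a PBS peak and 28% such a vasostatin-2 peak. Collagen genes are long, with a median of 114 kb against 17.2 kb for all protein-coding genes, and the share of genes of like length with a peak would give 16.7 and 18.2 genes. The PBS list had 15 peaks in these windows (Poisson interval 8.40 to 24.7) where the peak density of genes of like length gives 20.6, a ratio of 0.73 (0.41 to 1.20). The vasostatin-2 list had 19 peaks (11.4 to 29.7) against 23.9, a ratio of 0.79 (0.48 to 1.24). Both intervals include 1. The planned correction, the mean peak number of genes in the same length class, gave 0.65 (0.37 to 1.08) and 0.69 (0.42 to 1.08). With 1 density for all protein-coding windows the ratios were 0.43 (0.24 to 0.71) and 0.56 (0.34 to 0.88), and both intervals lie below 1. Whether collagen genes had fewer peaks than their length gives thus depends on the length correction. Of the 22 shorter genes 4 had a PBS peak and 6 a vasostatin-2 peak, and of the 22 longer genes 9 and 8. No peak was counted for more than 1 collagen gene.

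**Figure D1:**
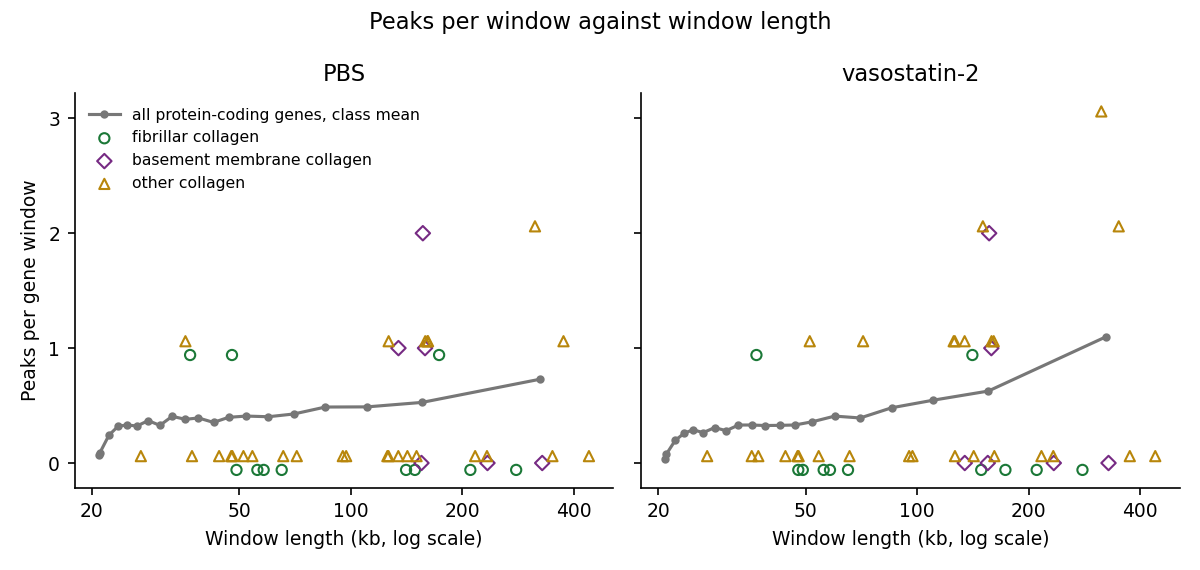
Number of peaks per window (vertical axis) against window length in kb (horizontal log axis) for the PBS and the vasostatin-2 library. The grey line joins the means of 20 length classes of all protein-coding genes, and each symbol is 1 collagen gene, shifted slightly by class so that symbols do not hide each other. Most collagen genes sit at 0, and the largest number is 3, for Col23a1 in the vasostatin-2 list.

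None of the collagen promoters for which a position was given was reached by a peak. The RefSeq promoter table lists 38 starts for 35 of the 44 genes, each as 250 bases before and 50 after the start. Col1a1, Col2a1, Col4a3, Col5a2, Col9a3, Col12a1, Col14a1, Col22a1 and Col26a1 are not in it. A peak overlapped 0 of the 38 promoters in either list. A count of 0 allows a share of up to 7.89%, taken as 3 over 38, which is an upper limit only and not a Wilson interval. Promoter counts, at this and wider distances, were added after the data were seen. Over all 21263 promoters of protein-coding genes PBS peaks overlapped 12.4% and vasostatin-2 peaks 7.74%, which would give 4.70 and 2.94 of 38. The number of summits within 1 kb of a collagen start was also 0 in both lists, against 15% and 10.1% of all starts. Within 3 kb there was 1 start in each list, that of Col5a1 in PBS and that of Col8a1 in vasostatin-2, against 17% and 12.1% of all starts.

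Several window peaks lay instead on the promoters of neighbouring genes. Of the 15 PBS peaks 10 were inside the collagen gene and 5 in its flank, and 2 of these overlapped a neighbour's promoter. Of the 19 vasostatin-2 peaks 14 were inside, 5 in the flank and 3 on a neighbour's promoter. The peak counted for Col11a2 covers the divergent promoters of Rxrb, which encodes the retinoid X receptor beta, and Slc39a7, a zinc transporter. The Col23a1 flank holds the start of Phykpl, a phosphohydroxylysine lyase. The Col16a1 flank holds that of Pef1, a calcium-binding protein, and the Col7a1 flank an internal start of Pfkfb4, an enzyme of glycolysis control. The 250 bases before these starts are shown because they, and not collagen starts, are where the promoter signal of the windows lay; capitals mark the bases inside the peak (PBS list for Rxrb and Phykpl, vasostatin-2 list for Pef1 and Pfkfb4). They come from RefSeq, build GRCm38.p6: Rxrb at chr17:34031562-34031811, plus strand; Phykpl at chr11:51584531-51584780, plus strand; Pef1 at chr4:130107306-130107555, plus strand; Pfkfb4 at chr9:108991652-108991901, plus strand.
Rxrb: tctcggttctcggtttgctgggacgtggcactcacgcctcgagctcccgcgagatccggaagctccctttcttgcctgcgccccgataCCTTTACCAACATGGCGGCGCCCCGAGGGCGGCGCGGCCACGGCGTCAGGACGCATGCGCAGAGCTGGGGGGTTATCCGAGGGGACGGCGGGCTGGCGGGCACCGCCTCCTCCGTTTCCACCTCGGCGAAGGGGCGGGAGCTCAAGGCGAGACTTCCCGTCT
Phykpl: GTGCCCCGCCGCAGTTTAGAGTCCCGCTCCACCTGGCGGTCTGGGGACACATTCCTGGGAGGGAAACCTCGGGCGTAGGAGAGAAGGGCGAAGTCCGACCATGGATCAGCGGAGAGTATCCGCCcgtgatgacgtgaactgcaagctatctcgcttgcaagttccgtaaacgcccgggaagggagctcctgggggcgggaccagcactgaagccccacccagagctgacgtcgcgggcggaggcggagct
Pef1: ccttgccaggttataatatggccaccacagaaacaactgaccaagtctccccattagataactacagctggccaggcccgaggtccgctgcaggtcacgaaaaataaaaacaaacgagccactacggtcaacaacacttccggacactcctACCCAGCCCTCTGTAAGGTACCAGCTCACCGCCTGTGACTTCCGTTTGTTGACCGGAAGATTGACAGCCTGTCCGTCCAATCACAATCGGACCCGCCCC
Pfkfb4: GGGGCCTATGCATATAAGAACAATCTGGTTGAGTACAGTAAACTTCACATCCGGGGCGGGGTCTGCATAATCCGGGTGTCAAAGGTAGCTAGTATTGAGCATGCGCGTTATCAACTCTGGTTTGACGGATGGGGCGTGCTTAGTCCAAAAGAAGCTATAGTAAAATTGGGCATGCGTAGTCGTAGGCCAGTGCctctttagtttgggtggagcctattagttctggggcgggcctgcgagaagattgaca

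The hexamer AGGTCA is the half-site that REV-ERB receptors and other nuclear receptors read. Searched on both strands in the 250 bases before the start, it occurred in 8 of 38 collagen promoters (21.1%) and in 12.8% of all promoters of protein-coding genes. The longer TAGGTCA, which contains it, occurred in 0 of 38 and 2.02%, and the E-box CACGTG, read by BMAL1 and CLOCK, in 0 of 38 and 6.63%. Of all promoters with AGGTCA, PBS peaks overlapped 8.38% and vasostatin-2 peaks 5.26%, below the 12.4% and 7.74% of all promoters. With TAGGTCA the shares were 8.84% and 6.28%, and with CACGTG 16.6% and 9.01%. The 8 genes with the hexamer were Col4a4, Col6a5, Col7a1, Col9a1, Col11a1, Col20a1, Col23a1 and Col24a1. A match is a description of these letters and not a binding site. Of these, Col4a4, Col6a5, Col7a1 and Col23a1 had peaks elsewhere in the window. The promoters of the 3 whose largest peak held 10 or more fragments are shown, leaving out Col6a5 with 4 fragments, and that of Col5a1 as the start nearest to a large peak; capitals mark the hexamer on either strand, and Col5a1 has none. Their positions in GRCm38.p6 are chr1:82586850-82587099, minus strand for Col4a4; chr9:108953336-108953585, plus strand for Col7a1; chr11:51289670-51289919, plus strand for Col23a1; and chr2:27886175-27886424, plus strand for Col5a1.
Col4a4: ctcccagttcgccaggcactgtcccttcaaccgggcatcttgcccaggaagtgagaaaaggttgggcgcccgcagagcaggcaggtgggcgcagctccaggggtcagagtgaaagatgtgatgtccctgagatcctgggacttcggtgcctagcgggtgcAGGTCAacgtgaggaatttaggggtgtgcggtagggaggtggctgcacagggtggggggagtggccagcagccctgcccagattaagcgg
Col7a1: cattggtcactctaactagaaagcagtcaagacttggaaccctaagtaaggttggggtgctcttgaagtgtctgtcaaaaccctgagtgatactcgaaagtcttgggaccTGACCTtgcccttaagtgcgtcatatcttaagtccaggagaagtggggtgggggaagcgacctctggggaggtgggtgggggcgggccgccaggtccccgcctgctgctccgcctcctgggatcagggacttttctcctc
Col23a1: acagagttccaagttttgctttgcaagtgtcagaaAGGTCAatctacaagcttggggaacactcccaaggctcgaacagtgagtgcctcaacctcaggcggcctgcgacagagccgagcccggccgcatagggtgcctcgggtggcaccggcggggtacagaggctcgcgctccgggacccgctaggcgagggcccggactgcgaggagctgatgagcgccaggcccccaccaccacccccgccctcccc
Col5a1: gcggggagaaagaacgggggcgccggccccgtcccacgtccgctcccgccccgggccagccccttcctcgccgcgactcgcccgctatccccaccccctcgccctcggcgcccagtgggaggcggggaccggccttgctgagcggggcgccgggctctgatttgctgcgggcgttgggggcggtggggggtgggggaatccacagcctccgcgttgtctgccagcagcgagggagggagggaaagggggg

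Among the 11 fibrillar genes, 3 had a PBS peak and 2 a vasostatin-2 peak, against 29.5% and 28% of all protein-coding genes. In neither list was there a peak for 7, against 60.0% of all protein-coding genes. Length gives 4.75 and 5.25 peaks, against 3 and 2 found, ratios of 0.63 (Poisson interval 0.13 to 1.85) and 0.38 (0.05 to 1.38). The PBS ratio was above 1 among peaks with -log10 q of at least 5 (1.77, 0.37 to 5.18) or at least 8 fragments (1.19, 0.25 to 3.49), and 0.29 (0.0074 to 1.63) with no flank, so its side of 1 is not settled by these 3 peaks. Col1a1, the alpha 1 chain of type I collagen, was the fibrillar gene with peaks at 1 site in both lists. The summit was outside the gene, 7.29 kb below its lower-coordinate end in PBS and 7.19 kb in vasostatin-2, at chr11:94928837-94929063 in the PBS list. It held 13 fragments in PBS (5.76-fold enrichment) and 11 in vasostatin-2 (5.10-fold). These summits lay inside Gm46293, a noncoding gene model, 371 and 473 bp from one of its ends. Its partner chain Col1a2 and the type III gene Col3a1 had no peak in the window. The nearest peak lay 309 kb from Col1a2 in PBS and 115 kb in vasostatin-2, and 1208 kb and 446 kb from Col3a1. Col5a2, the neighbour of Col3a1, had none within 1055 kb and 292 kb.

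The largest fibrillar peak was in Col5a1, which encodes the type V chain that seeds fibrils and limits their width. It lay inside the gene at chr2:27889025-27889662, 2.93 kb past the start, was 638 bp wide and held 27 fragments with 7.73-fold enrichment in the PBS library. The vasostatin-2 list had no peak in the window, and its nearest was 27.7 kb from the gene. Of the 427 PBS peaks with 21 to 49 fragments 92.0% overlapped a vasostatin-2 peak, so Col5a1 belonged to the minority of that class. The Col11a2 peak (15 fragments, 5.12-fold, PBS alone) was the one on the Rxrb and Slc39a7 promoters, 29 bp from the end of Slc39a7 and 7.20 kb from Col11a2. Peaks of 13 to 20 fragments in the PBS list were shared at 66.7%. Col27a1 had a vasostatin-2 peak of 5 fragments (4.34-fold) 11.8 kb past its start. Col2a1, Col5a3, Col11a1 and Col24a1, of cartilage and minor fibrils, completed the 7 without a peak.

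**Figure D2:**
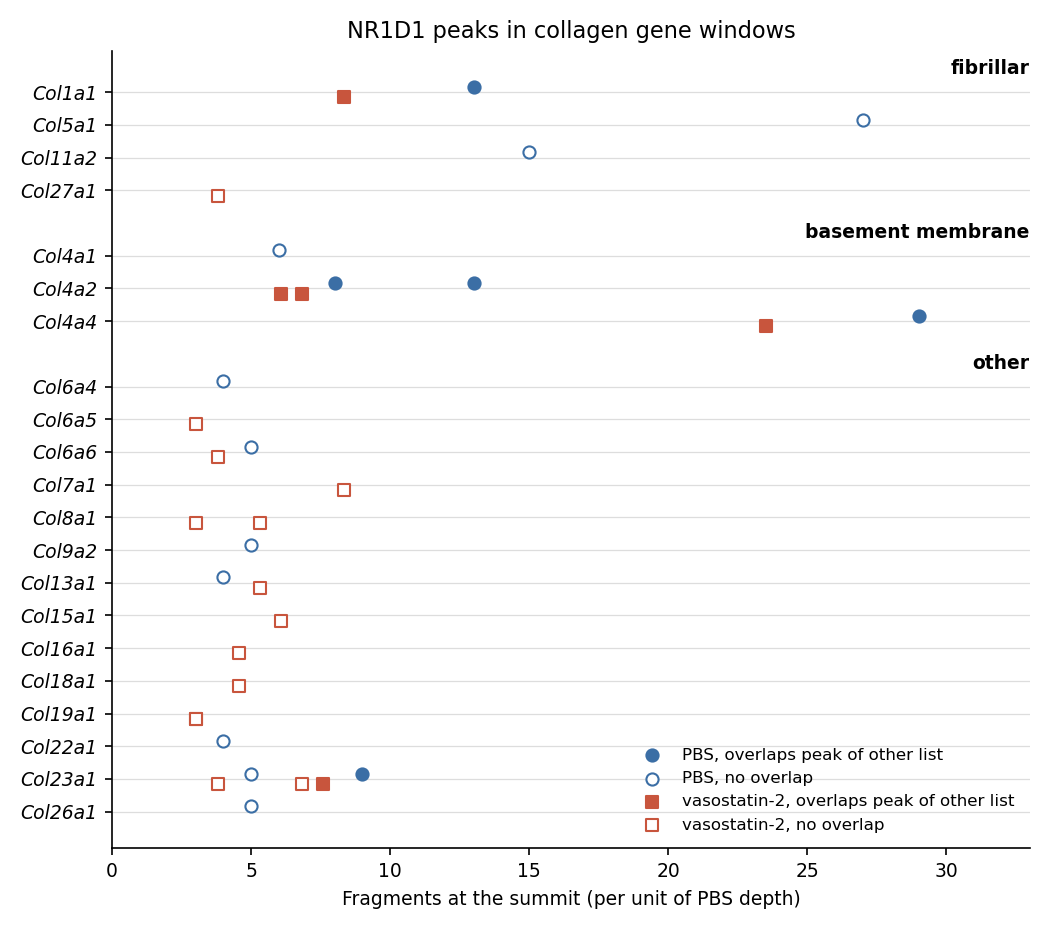
Fragments at the summit of each peak in a collagen window (horizontal axis, vasostatin-2 values divided by the depth ratio of 1.32), by gene and class. Circles are PBS and squares vasostatin-2, and filled symbols overlap a peak of the other list; the 2 vasostatin-2 peaks of Col19a1 have the same value and coincide. Col4a4 and Col5a1 in PBS and Col4a4 in vasostatin-2 stand to the right of all others.

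Type IV genes, the basement membrane class, included the collagen gene with the largest peak in both libraries. Of the 6 genes 3 had a PBS peak and 2 a vasostatin-2 peak, with 4 and 3 peaks where length gives 2.96 and 3.83, ratios of 1.35 (Poisson interval 0.37 to 3.46) and 0.78 (0.16 to 2.29). These too changed sides of 1, to 0.62 in PBS with 1 density for all windows and to 1.62 in vasostatin-2 with at least 8 fragments per unit of PBS depth. In Col4a4, a chain of the kidney, eye and ear network, the peak at chr1:82477418-82477872 held 29 fragments in PBS (12.7-fold enrichment) and 31 in vasostatin-2 (11.6-fold). The summits were 40 bp apart, 109 kb past the start and 29.2 and 29.1 kb from the other end of the gene. Col4a2, a chain of the basement membrane of vessels, had peaks at 2 sites in each list. The first, at chr8:11382718-11382930, held 8 fragments in PBS and 9 in vasostatin-2. The second, at chr8:11393016-11393681, held 13 and 8, with summits 399 bp apart. Both sites were inside the gene, 70.0 and 80.4 kb past the start by the PBS summits. Col4a1, which pairs with Col4a2 and starts beside it in the opposite direction, had a PBS peak of 6 fragments (4.83-fold) 63.0 kb past its start and no vasostatin-2 peak. Col4a3, Col4a5 and Col4a6 had none in either list. With Col7a1, Col15a1 and Col18a1, which also belong to basement membrane zones, the class had 4 peaks in PBS and 6 in vasostatin-2 over 9 genes, ratios of 0.92 and 1.13.

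**Figure D3:**
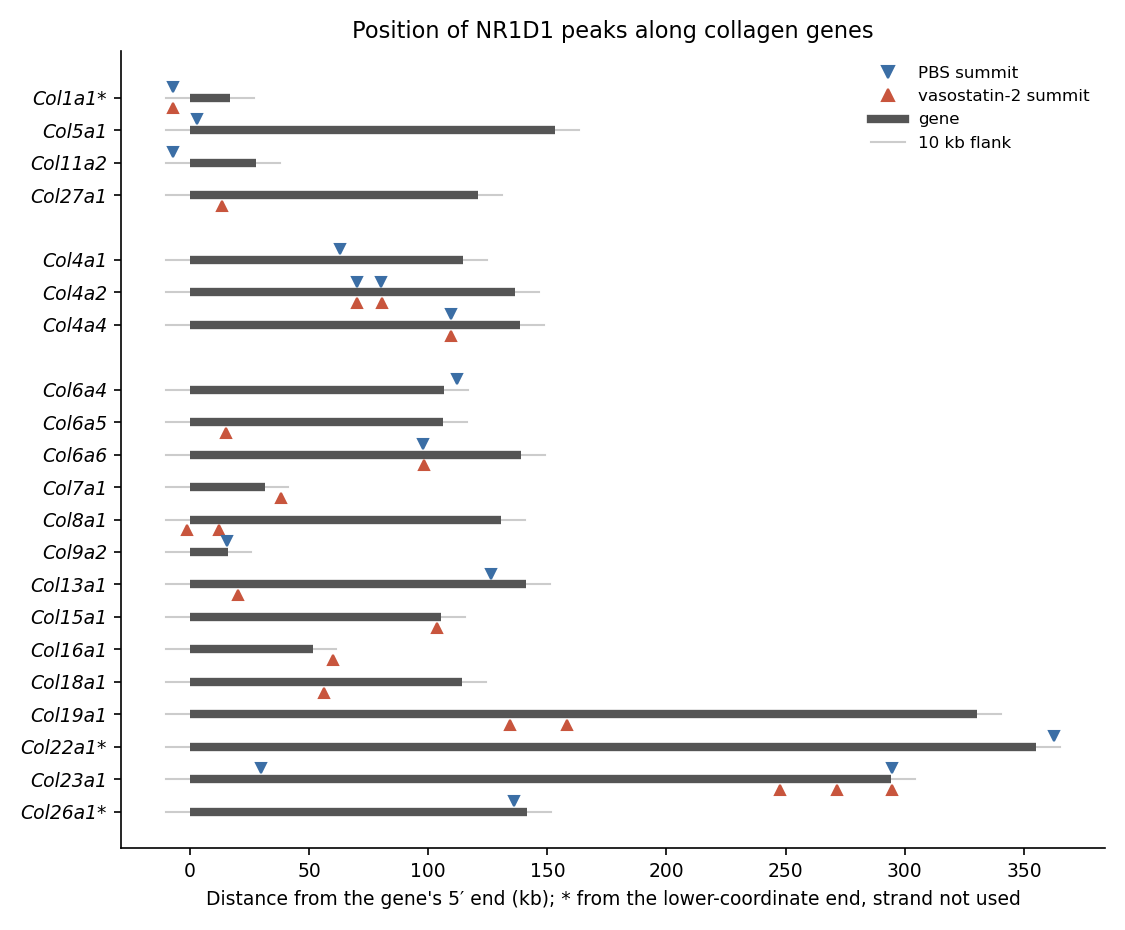
Summits of PBS peaks (triangles above) and vasostatin-2 peaks (triangles below) along the 21 collagen genes with a peak, in kb from the outermost 5′ end of the gene, or from the lower-coordinate end for the genes with a star, whose strand was not used. Thick bars are genes and thin lines the 10 kb flanks. Summits of both lists lie together at Col1a1, Col4a2, Col4a4, Col6a6 and the far end of Col23a1, and most others are inside long genes.

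Of the other 27 collagen genes 3 had a peak in both lists, against 17.5% of all protein-coding genes, and 1 (Col23a1) had overlapping peaks, against 13.4%. In this class 7 genes had a PBS peak and 10 a vasostatin-2 peak, with 8 and 14 peaks where length gives 12.9 and 14.8, ratios of 0.62 (Poisson interval 0.27 to 1.23) and 0.94 (0.52 to 1.58). The PBS interval lay below 1 with 1 density for all windows (0.16 to 0.74) and with at least 8 fragments (0.0038 to 0.84), and no PBS peak of the class had -log10 q of at least 5 (0 to 0.83). Col23a1, a transmembrane collagen, had the most: 2 peaks in PBS, of 5 and 9 fragments, and 3 in vasostatin-2, of 9, 5 and 10. The peaks of 9 (PBS) and 10 fragments had the same summit, on the Phykpl side 506 bp beyond the gene. Col13a1, also a transmembrane collagen, had a peak in each list at different places, of 4 fragments (PBS) and 7 fragments (vasostatin-2). Col6a6, a type VI chain, had 5 fragments in each, and the peaks were close but did not overlap. The usual type VI chains Col6a1, Col6a2 and Col6a3, which form the beaded filaments around cells, had no peak in their windows.

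Vasostatin-2 peaks alone were found at Col8a1, a short-chain collagen made by vascular cells in injury, with 7 fragments 12.1 kb past the start and 4 fragments 1.29 kb before it. They were also found at Col15a1 (8 fragments, 5.71-fold, 2000 bp from the far end) and Col18a1 (6 fragments, 3.35 kb past the nearer of its listed starts), the genes of the multiplexins, the second of which yields endostatin. Col7a1 (11 fragments, the Pfkfb4 site), Col16a1 (6, the Pef1 site), Col6a5 (4) and Col19a1 (4 and 4) completed this set. PBS peaks alone were found at Col9a2 and Col26a1, with 5 fragments each, and at Col6a4 and Col22a1, with 4 each. Among PBS peaks of 4 to 5 fragments 7.94% were shared over the whole list, and in the vasostatin-2 list 5.35%. Vasostatin-2 peaks of 6 to 8 fragments were shared at 22.7% and those of 9 to 12 at 47.4%, and this library was the deeper one. A peak of these sizes missing from the other list is thus not shown to be absent there.

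Compared gene by gene, both lists had a peak at 6 collagen genes, the PBS list alone at 7, the vasostatin-2 list alone at 8 and neither list at 23. Over all protein-coding genes both lists had one at 17.5%, the PBS list alone at 12%, the vasostatin-2 list alone at 10.5% and neither list at 60.0%. Overlapping peaks were present at 4 of 44 collagen genes (Col1a1, Col4a2, Col4a4 and Col23a1), against 13.4% of all protein-coding genes. These gene shares, here and for the collagen classes, were not corrected for length, although collagen genes are longer than most. Of the collagen peaks 5 of 15 in PBS (33.3%, Wilson interval 15.2 to 58.3) and 5 of 19 in vasostatin-2 (26.3%, 11.8 to 48.8) overlapped a peak of the other list. The shares over the whole lists were 35.6% and 30%, and all peaks with like numbers of fragments give 5.31 and 5.01 shared peaks. The counts at collagen genes were close to these. Of the collagen peaks 9 in PBS (60%) and 13 in vasostatin-2 (68.4%) had 4 to 8 fragments, against 56.3% and 66.1% of all peaks.

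At the 5 overlapping pairs the vasostatin-2 library held fewer depth-scaled fragments in each case. The log2 ratio of vasostatin-2 to PBS was -0.30 at Col4a4, -0.25 at Col23a1 and -0.64 at Col1a1. It was -0.23 at the first Col4a2 site and -1.10 at the second. The median was -0.30, against -0.72 over the 1931 pairs with 8 to 29 PBS fragments, of which 90.1% were lower in vasostatin-2. For such pairs not at a gene end it was -0.55, with quartiles of -0.92 and -0.14. For those at a gene end, as the Col1a1 and Col23a1 pairs were, it was -0.84, and 97.3% were lower. Without depth scaling, 3 of the 5 collagen pairs (Col4a4, Col23a1 and the first Col4a2 site) had 1 to 2 fragments more in vasostatin-2, so the direction there rests on the depth ratio.

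Collagen peaks lay mostly inside genes and away from their ends. A summit within 1 kb of either end of any annotated gene was found for 4 of 15 PBS peaks (26.7%, Wilson interval 10.9 to 52.0) and 4 of 19 vasostatin-2 peaks (21.1%, 8.51 to 43.3). The shares were 40.2% and 25% over all peaks, and both intervals include these values. Among all peaks in windows of protein-coding genes they were 51.2% and 35.1%; the first lies inside the PBS interval and the second inside that of vasostatin-2. The only collagen end within 1 kb of a summit inside its own gene was that of Col9a2, 372 bp away in PBS. Summits inside collagen genes were a median of 29.5 kb from the nearer end in PBS and 34.8 kb in vasostatin-2. Just outside the windows, Col16a1 had a peak in each list, of 23 fragments 10.5 kb away in PBS and of 16 fragments 10.4 kb away in vasostatin-2, and Col5a3 a PBS peak of 17 fragments 10.7 kb away. The 23 genes with no peak in either list had their nearest one at a median of 109 kb in PBS and 115 kb in vasostatin-2.

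**Figure D4:**
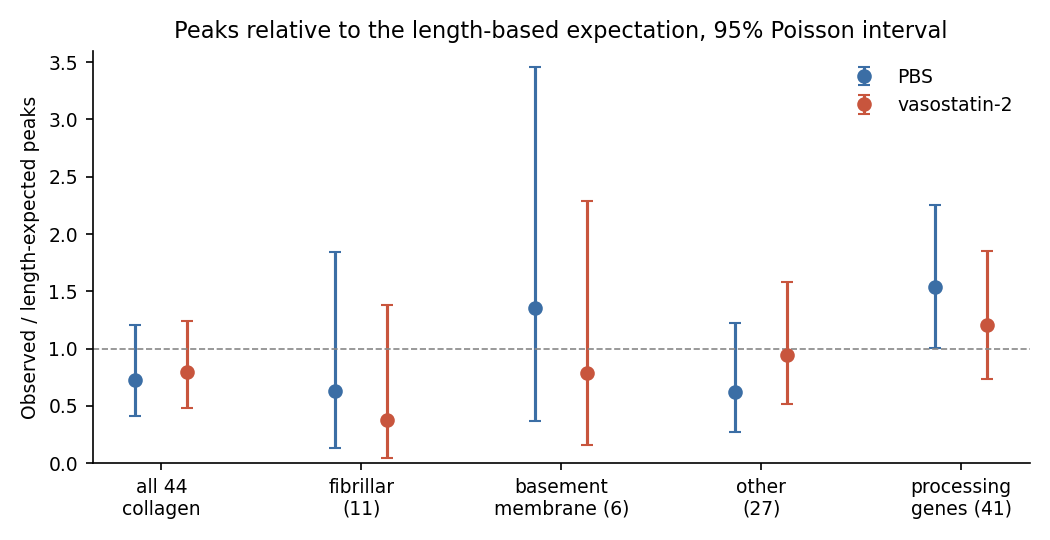
Peaks found over peaks given by window length (vertical axis; 1, dashed, is the density of all protein-coding genes of like length) for the 44 collagen genes, their 3 classes and 41 collagen processing genes. Points are single libraries and bars are Poisson intervals, which cover counting error only; the bars of all collagen classes include 1.

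Genes that modify, export, cleave, crosslink or bind collagen were counted in the same way, from a list of 41. Of these 15 had a PBS peak and 17 a vasostatin-2 peak, against 29.5% and 28% of all protein-coding genes, and like length gives 13.7 and 13.4. They had 26 and 20 peaks where length gives 16.9 and 16.6, ratios of 1.54 (Poisson interval 1.01 to 2.26) and 1.20 (0.73 to 1.86). Of their listed promoters 5 of 36 were overlapped in PBS and 3 in vasostatin-2, close to the 12.4% and 7.74% of all promoters. The difference from collagen genes was not tested.

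Of the 4 prolyl 4-hydroxylase genes, whose product stabilizes the triple helix, 3 had overlapping peaks in both lists, against 13.4% of all protein-coding genes. P4hb, the shared beta subunit, had 26 fragments (7.79-fold) in PBS and 13 (5.55-fold) in vasostatin-2 at its promoter, and P4ha1 had 14 and 8 at its promoter. P4ha2 had 19 and 17 fragments at a site 8499 and 8478 bp beyond its far end. Of the 6 prolyl 3-hydroxylase complex genes 3 had a PBS peak and 0 a vasostatin-2 peak, against 12% of all protein-coding genes with a PBS peak alone. The peaks held 14 fragments at P3h4, 6 at P3h3 and 5 at P3h2. Over the whole list PBS peaks of 13 to 20, 6 to 8 and 4 to 5 fragments were shared at 66.7%, 23.2% and 7.94%. The absence of these peaks in vasostatin-2 is thus not shown. Serpinh1, the collagen chaperone HSP47, had 29 fragments (9.66-fold) in PBS and 16 (7.23-fold) in vasostatin-2, 7060 and 7003 bp before its start. It had 2 peaks in PBS and 1 in vasostatin-2, and its promoter was overlapped in the PBS list but not in the vasostatin-2 list. Sec23a, a coat protein of export vesicles, had 14 fragments 45 bp past its start in PBS. In vasostatin-2 it had a peak of 4 fragments at another site, 6605 bp from an end of the gene.

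Of 8 propeptide cleavage genes 3 had a PBS peak and 5 a vasostatin-2 peak, led by Pcolce (15 and 10 fragments, nearer to Mospd3 than to Pcolce) and Adamts2 (11 and 10, at different sites in the gene). Of 8 receptors and fibril-binding genes 3 and 4 had a peak, among them the collagen receptor Ddr1 with 13 and 15 fragments and Sparc, a matrix glycoprotein, with 12 and 8 at its promoter. Of the 5 lysyl oxidase genes (Lox and Loxl1 to Loxl4), which crosslink collagen, none had a peak in either list, against 60.0% of all protein-coding genes with none. Of 5 lysyl hydroxylase and glycosyltransferase genes 1 and 2 had a peak. Over all protein-coding genes 29.5% had a PBS peak and 28% a vasostatin-2 peak.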

How the data were processed

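NR1D1 CUT&Tag was deposited as 1 peak list per treatment, on build mm10. Trimmomatic 0.39, BWA 0.7.17 and MACS2 2.2.7.1 are named, without roles or settings, per the submitters' processing notes, and the sources used here do not say whether the IgG libraries served as control. The deposited files have no header and follow the caller's 10 columns. The deposited fold was taken as the ratio of summit to local background fragments after 1 is added to each, which is an assumption. A -log10 p-value and a -log10 q-value of each summit were also deposited. The deposited score is the -log10 q times 10, rounded down, and was not used. Fold is the authors' own value for each peak and served for description within its list.

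The caller's Poisson formula was solved for whole fragments at each summit, given its fold and -log10 p, with a solution within 0.0005 for 100% of peaks. Floor and step of the background, a 10000 bp window being assumed, gave the depth ratio of 1.32. If the background came from the NR1D1 library itself, repeated sequence was not removed by a control. Genes came from RefSeq GRCm38.p6 (49943 genes, with no exons), so exon, intron and UTR were not told apart. Expected peaks are the window length times the peak density of 1 of 20 length classes. The planned class mean was replaced because, in simulated peaks placed in proportion to length, it gave too high an expectation for collagen genes. The PBS mean of found peaks was 0.066 at a median window of 20.9 kb, in the class of shortest windows. From length class 3 up, found peaks rose less than in proportion: the PBS mean was 0.24 at a median window of 22.2 kb and 0.53 at 156 kb. The simulation thus does not show that the planned correction was biased in these data. The planned values stand beside the reported ones. Promoter counts were not planned. Expected genes with a peak come from the 200 next shorter and 200 next longer genes. Peaks overlapping by at least 1 bp were called shared (own step; bedtools 2.31.1 gave the same 2628 and 2649 peaks). Python 3.11.15 and scipy 1.17.1 were used. The members, the lists and the tests were chosen with earlier results of these data known. Named in any case were 12 vascular collagens, collagen genes with overlapping peaks in both lists, the 6 with the most fragments in each list, the gene with the most peaks per class, and the 6 processing genes with the most fragments per list; other collagen genes were named after their values were seen. Alternatives covered window, assignment, threshold, depth, overlap and length correction.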

Additional observations from a re-analysis of the deposited data

How the results depend on the processing

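Of 186 recomputed values 164 stayed inside the interval of the reported one, with their own interval on the same side of 1 for ratios, or within 1.5 times the reported count, and 22 did not. The ratio of found to expected collagen peaks ranged from 0.43 to 0.82 in PBS and 0.50 to 1.00 in vasostatin-2. With 1 density for all windows its interval lay below 1 in both lists, at 0.43 (0.24 to 0.71) and 0.56 (0.34 to 0.88), and so did that of other collagens in PBS at 0.37; 1 density takes no account of the lower peak density of the longest windows. With -log10 q of at least 5 the genes with a peak were 5 in PBS and 3 in vasostatin-2, with 5 and 3 peaks, the ratio was 0 for other collagens in PBS and 0 for fibrillar collagens in vasostatin-2, and the share of vasostatin-2 peaks at gene ends was 0. With at least 8 fragments per unit of PBS depth 6 and 3 genes had 7 and 3 peaks, the ratio for other collagens was 0.15 and 0.35, and 66.7% of the vasostatin-2 peaks were shared. With no flank the share at gene ends was 10.0% in PBS and 7.14% in vasostatin-2. A flank of 25 kb gave 31 vasostatin-2 peaks. Promoter counts, all chosen after seeing the data, were 0 by overlap and within 1 kb of the start, and 1 in each list within 3 kb. Stricter rules leave fewer peaks by their construction. For the shares the cause was not tested. Most peaks hold 4 to 8 fragments, which limits every count. No paired analysis was possible because each treatment has 1 NR1D1 library.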
